A study of Mus musculus with 18 samples.

Results

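Gain and loss of the transcription factor IRF3 in mouse adipocytes were set side by side, gene by gene, over all 18 libraries of the study. For gain, SVF-derived adipocytes with active IRF3 (FI3OE, 3 libraries) were compared with their controls (WT SVF, 3 libraries). For loss, ribosome-bound RNA of adipocytes lacking IRF3 (FI3KO, 6 libraries) was compared with that of WT mice (WT TRAP, 6 libraries). The members were the 13093 of 33440 genes with enough reads in both systems: 16105 passed the filter on low counts in the SVF-derived adipocytes and 13624 in the TRAP libraries. For each of them the contrast is the log2 fold change on gain minus the log2 fold change on loss, so that a positive contrast means a gene moved further up, or less far down, with active IRF3 than with IRF3 deleted.

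FI3OE and WT SVF adipocytes were grown from the stromal vascular fraction (SVF) of inguinal fat of IRF3-2D mice, whose constitutively active *Irf3* allele is silent until Cre acts on it. After differentiation they received AAV-GFP-Cre (FI3OE) or AAV-GFP (WT SVF), so that these groups differ in Cre as well as in the allele, and the WT SVF cells carry the unrecombined allele. FI3KO mice carried floxed *Irf3* deleted in adipocytes, and FI3KO and WT TRAP mice alike carried the adipocyte-specific NuTRAP ribosome tag. TRAP mice were fed a high-fat diet for 8 weeks at thermoneutrality, and tagged ribosomes were pulled down from epididymal fat (eWAT). All libraries were labelled C57BL/6, and the labels used here give no age or sex of the animals. TRAP keeps RNA on the tagged ribosomes of adipocytes, but RNA of other cells can be carried over. Depot, culture against mouse, diet and total against ribosome-bound RNA differ between the systems along with the change in IRF3 and cannot be told apart from it. The systems share no library and were normalized separately, so levels in CPM (reads of a gene scaled to a common library size) are compared only within a system. Replicates were labelled as biological, with no word on separate cultures or animals, so p-values measure the spread between these libraries.

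IRF3 is an innate immune transcription factor. It rests in the cytoplasm until TBK1 phosphorylates it downstream of Toll-like receptors or of sensors of viral RNA and cytosolic DNA, then dimerizes, enters the nucleus and binds interferon-stimulated response elements in the promoters of interferon, chemokine and antiviral genes. In adipocytes it is known as a link between inflammatory signals and metabolic genes. A gene driven by IRF3 in both settings would be higher in FI3OE and lower in FI3KO.

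Libraries held 21541334 to 36932452 reads in the SVF-derived adipocytes and 25259869 to 40490283 in TRAP, and 3 reads amounted to 0.0741 to 0.1393 CPM. Adipocyte markers summed to 16471 to 17002 CPM in FI3OE and 18115 to 18389 CPM in WT SVF. In TRAP replicates 3 to 6 they summed to 66866 to 74536 CPM in FI3KO against 54731 to 64767 CPM in WT. The order turned in TRAP replicates 1 and 2 (58557 to 61291 CPM against 71885 to 73692 CPM). None of the 8 defining markers was at or below 3 reads. TRAP replicates 1 and 2 of both genotypes stood apart from replicates 3 to 6. On the leading component of the TRAP libraries, which held 55.3% of the variance, FI3KO replicates 3 to 6 lay at -0.35 to -0.30 and WT TRAP replicates 3 to 6 at 0.34 to 0.39, whereas replicates 1 and 2 lay between them. WT TRAP replicates 1 and 2 differed by a mean chi-square of 2.54 per gene, against 8.41 to 130 for the other WT TRAP pairs and 3.85 to 7.73 for pairs within a culture group. FI3KO replicates also fell into close pairs (1 with 2, 3 with 4, 5 with 6) at 16.9 to 34.9, against 56.5 to 268 for the other FI3KO pairs. No pair reached sampling noise and all libraries were kept, but the labels do not say whether these close pairs are separate animals or repeat libraries. Changes on loss are over 6 against 6 libraries unless a TRAP set is named. Values within the sets are added for many of the genes and wherever the sign of a called change turned in replicates 1 and 2.

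*Irf3* itself (chr7:44997648-45002848, plus strand, GRCm38) moved at the gene level as the labels say. FI3OE libraries held 92.2, 102 and 92.3 CPM of *Irf3* and WT SVF libraries 57.8, 56.2 and 56.4 CPM. FI3KO libraries ran from 13.0 through a median of 15.1 to 19.7 CPM and WT TRAP libraries from 16.5 through 20.4 to 22.3 CPM. Gain separated the groups fully, whereas on loss 4 of 6 FI3KO libraries lay below all WT TRAP libraries and the ranges overlapped. The log2 fold change was 0.73 ± 0.05 (SE) on gain (edgeR adjusted p = 3.30e-07) and -0.35 ± 0.11 on loss (adjusted p = 0.0198), and the contrast was 1.10 ± 0.16 (adjusted p = 7.52e-05). A two-sided exact permutation test gave p = 0.10 on gain, the smallest that 3 against 3 allows, and p = 0.0108 on loss. The residual reads in FI3KO sat on other transcripts. Transcript Irf3-202 was assigned 0.0 reads in all 6 FI3KO libraries and 163.6 to 388.1 in WT TRAP, while the 369-nt transcript Irf3-211 was assigned 89.9 to 175.3 reads in FI3KO and 0.0 to 7.6 in WT TRAP. An offset for transcript length turned the *Irf3* change on loss to 0.71 (adjusted p = 0.00181) and its contrast to -0.24 (adjusted p = 0.404), and in TRAP replicates 1 and 2 alone the change on loss was -0.18 (adjusted p = 0.452).

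*Aig1*, which encodes a hydrolase of FAHFA lipids, was higher with active IRF3 and not lower without it. FI3OE libraries held 12.7, 13.4 and 13.0 CPM against 9.15, 8.43 and 8.68 CPM in WT SVF, and FI3KO libraries ran from 7.13 through 7.60 to 10.8 CPM against 5.96 through 6.45 to 7.46 CPM in WT TRAP. All FI3OE libraries lay above all WT SVF libraries, and in TRAP 4 of 6 knockout libraries exceeded every WT library. *Aig1* changed by 0.56 ± 0.08 on gain (edgeR adjusted p = 2.00e-04) and by 0.29 ± 0.11 on loss (adjusted p = 0.0552; two-sided exact permutation p = 0.00866), with a contrast of 0.28 ± 0.17 (adjusted p = 0.220). *Adtrp*, another known FAHFA hydrolase, changed by -0.73 ± 0.51 on gain (adjusted p = 0.291) and fell by 0.97 ± 0.18 on loss (adjusted p = 0.00137), with a contrast of 0.25 ± 0.53 (adjusted p = 0.749). Its FI3OE libraries held 0.188 to 0.635 CPM, close to the depth limit. *Ccl5*, an interferon-induced chemokine, held 22.6, 23.5 and 22.6 CPM in FI3OE and 2.60, 1.74 and 1.80 CPM in WT SVF. It did not pass the filter on low counts in TRAP, where FI3KO libraries ran from 0 to 0.0323 CPM and WT TRAP libraries from 0.0375 through 0.124 to 0.236 CPM. These TRAP groups did not overlap, but every FI3KO library was under the value of 3 reads, and the difference was not tested.

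Genes that moved against each other on gain and loss outnumbered those that moved together. Of the 13093 genes, 2934 (22.4%) were higher and 2474 (18.9%) lower in FI3OE, and 2555 (19.5%) were higher and 2335 (17.8%) lower in FI3KO, at an edgeR adjusted p of at most 0.05 in the fit of each system. Both changes were called and opposite in 1370 genes (10.5%), of which 822 (6.28%) were higher in FI3OE and lower in FI3KO and 548 (4.19%) the reverse. Both were called in the same direction in 857 genes (6.55%), of which 451 (3.44%) were higher in both and 406 (3.10%) lower in both. Read from the gain side, 28.0% of the genes higher in FI3OE were lower in FI3KO and 15.4% were higher there, against 17.8% and 19.5% of all genes. Of the genes lower in FI3OE, 22.2% were higher and 16.4% lower in FI3KO. Read from the loss side, 35.2% of the genes lower in FI3KO were higher in FI3OE, and 21.4% of those higher in FI3KO were lower in FI3OE. Across the 13093 genes the changes had a Pearson r of -0.14 and a Spearman rho of -0.14, a description over genes that share their libraries.

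**Figure D1:**
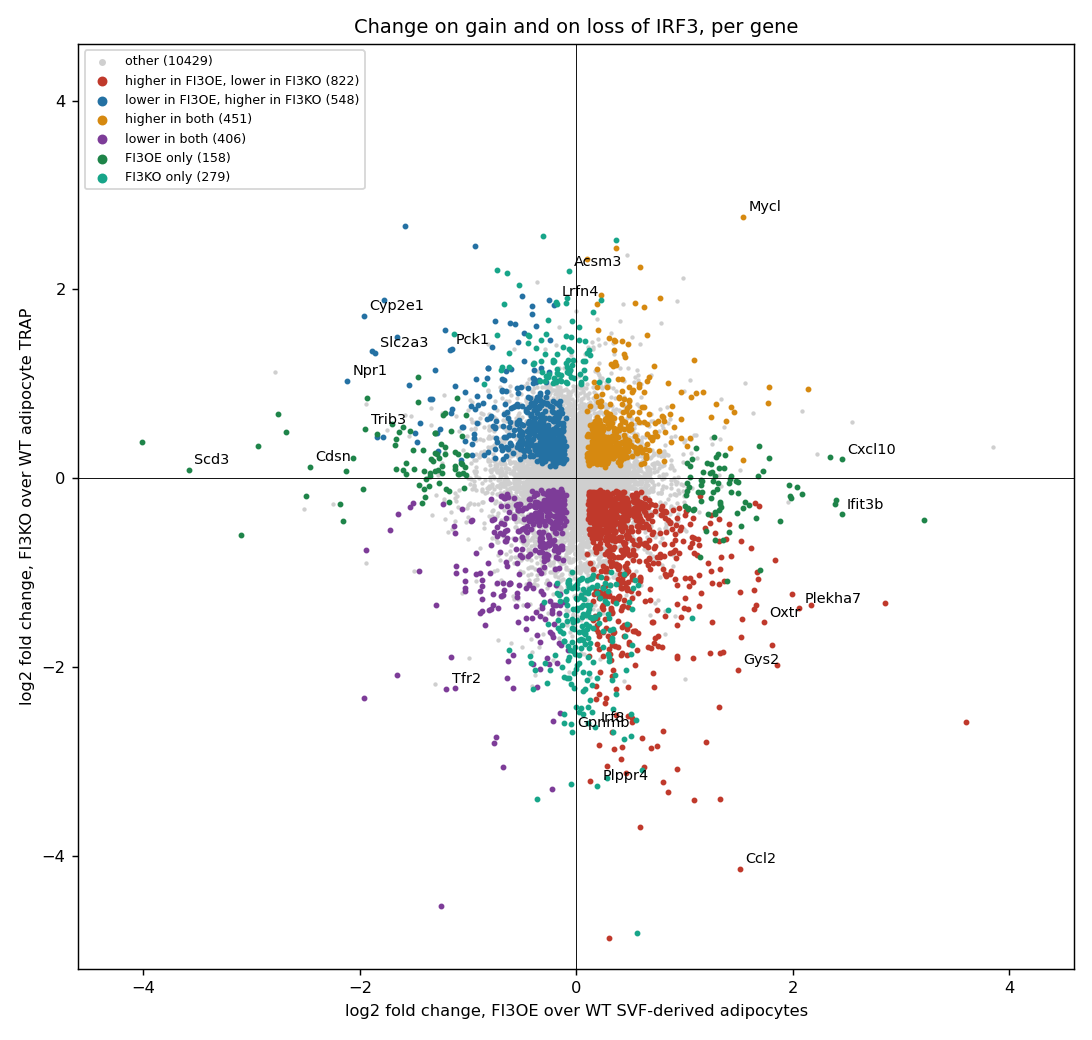
Each dot is 1 of the 13093 genes measured in both systems (2 lie outside the axes), with its log2 fold change on gain (x, FI3OE over WT SVF) and on loss (y, FI3KO over WT TRAP), coloured by class. The 822 genes at the lower right and the 548 at the upper left are the opposite genes, and *Ccl2* and *Cyp2e1* lie far out among them.

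The test of the contrast itself called 4121 genes (31.5%), 2261 (17.3%) with a positive and 1860 (14.2%) with a negative contrast. It called 99.3% of the opposite genes and 14.2% of the same-direction genes, of which 122 differed in size. These shares follow largely from how the classes were defined in the same libraries and are no separate check of them. Most changes were small. Median log2 fold changes were 0.35 on gain and -0.52 on loss for the genes raised by gain and lowered by loss, and -0.30 and 0.41 for the reverse. A log2 fold change of 1 was reached by 1.42% of genes upward and 1.21% downward on gain, and by 1.54% and 4.24% on loss. Both changes reached it in 49 opposite genes (38 raised by gain and lowered by loss, 11 the reverse) and in 13 same-direction genes (2 higher, 11 lower). Neither change was called in 5022 genes. Taking both changes from a fit of all 18 libraries, which share a single estimate of spread, called 585 opposite and 344 same-direction genes, and 487 of the 1370 opposite genes were among the 585. A length offset gave 829 opposite and 458 same-direction genes. Over all genes tested in TRAP, 5095 were called on loss. Averaging the close FI3KO pairs, an alternative chosen after seeing the data, gave 3074 such calls, with 861 opposite and 497 same-direction genes. TRAP replicates 1 and 2 alone gave 500, 168 and 107, and counting WT TRAP replicates 1 and 2 as 1 library gave 5332, 1467 and 875.

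Among the genes raised by gain and lowered by loss, the 6 with the largest value of the smaller of both changes, at a mean of at least 1 log2 CPM in each system, were *Oxtr*, *Ccl2*, *Gys2*, *Marc1*, *Plekha7* and *Inka2*. *Oxtr* (the oxytocin receptor, chr6:112473683-112489943, minus strand) held 13.2, 13.6 and 11.5 CPM in FI3OE against 3.42, 4.31 and 3.68 CPM in WT SVF. In TRAP it ran from 148 through 198 to 263 CPM in FI3KO against 405 through 588 to 771 CPM in WT. Neither pair of groups overlapped. *Oxtr* changed by 1.73 ± 0.12 on gain and -1.53 ± 0.19 on loss, with a contrast of 3.28 ± 0.33 (edgeR adjusted p = 2.19e-06), and TRAP replicates 3 to 6 gave -1.88 on loss and replicates 1 and 2 gave -0.76 (adjusted p = 0.0394).

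*Ccl2*, which encodes the chief monocyte chemoattractant (chr11:82035571-82037453, plus strand), held 52.3, 48.7 and 50.7 CPM in FI3OE against 16.8, 16.1 and 19.6 CPM in WT SVF. FI3KO libraries ran from 0.550 through 1.46 to 2.45 CPM and WT TRAP libraries from 6.12 through 34.2 to 40.1 CPM. Again neither pair of groups overlapped, and WT TRAP replicates 1 and 2 were the low WT libraries. Its contrast of 5.67 ± 0.78 (adjusted p = 5.21e-05) joined 1.51 ± 0.07 on gain to -4.14 ± 0.55 on loss (-5.07 in TRAP replicates 3 to 6, -1.38 in replicates 1 and 2). Macrophage markers, given with the chemokines, were lower in FI3KO in TRAP replicates 3 to 6 and overlapped in replicates 1 and 2, where *Ccl2* fell too (adjusted p = 0.0212), and their part in the result was not tested.

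*Plekha7*, an adherens junction protein, held 7.07, 6.38 and 5.75 CPM in FI3OE against 1.48, 1.10 and 1.92 CPM in WT SVF, and ran from 6.65 through 8.00 to 13.8 CPM in FI3KO against 23.2 through 23.8 to 26.4 CPM in WT TRAP. Groups were fully apart in both systems, and the contrast was 3.45 ± 0.34 (adjusted p = 1.54e-06), with -1.75 and -0.81 on loss in TRAP replicates 3 to 6 and in replicates 1 and 2. *Gys2*, a glycogen synthase (1.49 ± 0.14 on gain, -2.03 ± 0.37 on loss, contrast 3.53 ± 0.60), *Marc1*, a mitochondrial reductase (1.53 ± 0.19, -1.49 ± 0.28, contrast 3.02 ± 0.55), and *Inka2*, an inhibitor of a PAK kinase (1.66 ± 0.09, -1.35 ± 0.22, contrast 3.03 ± 0.33), had adjusted p of 3.66e-04, 6.11e-04 and 4.86e-06 for the contrast. Their loss values were closer to 0 in TRAP replicates 1 and 2. *Gys2* fell by 2.72 in replicates 3 to 6 and had a value of -0.15, not called, in replicates 1 and 2. The values in the same order were -2.17 and -0.44 (adjusted p = 0.0444) for *Marc1* and -1.80 and -0.41 (adjusted p = 0.231) for *Inka2*.

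In the reverse direction the leading genes were *Cyp2e1*, *Slco2b1*, *Chdh*, *Slc2a3*, *Pck1* and *Npr1*, most of them metabolic enzymes or transporters. *Cyp2e1*, a cytochrome P450 enzyme (chr7:140763739-140774987, plus strand), held 2.29, 1.54 and 2.59 CPM in FI3OE against 9.35, 8.79 and 6.77 CPM in WT SVF. In TRAP it ran from 685 through 967 to 1741 CPM in FI3KO against 148 through 209 to 637 CPM in WT. Groups did not overlap in either system, and WT TRAP replicates 1 and 2 were the high WT libraries. Its change was -1.96 ± 0.19 on gain and 1.72 ± 0.40 on loss, with a contrast of -3.67 ± 0.72 (adjusted p = 0.00120), but on loss it rose by 2.79 in TRAP replicates 3 to 6, against 0.24 in replicates 1 and 2 (adjusted p = 0.103).

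*Slc2a3*, the glucose transporter GLUT3, held 2.88, 5.25 and 4.38 CPM in FI3OE against 16.2, 15.4 and 13.8 CPM in WT SVF, and ran from 14.3 through 15.9 to 21.7 CPM in FI3KO against 4.05 through 5.85 to 10.8 CPM in WT TRAP. No library overlapped with the other group, and the change on loss was called in both TRAP sets (1.79 in replicates 3 to 6; 0.63 in replicates 1 and 2, adjusted p = 0.0469). *Pck1*, the cytosolic phosphoenolpyruvate carboxykinase that feeds glycerol synthesis in fat, held 4.53, 3.68 and 4.32 CPM in FI3OE against 8.08, 10.4 and 9.39 CPM in WT SVF, and ran from 3616 through 4039 to 6166 CPM in FI3KO against 710 through 805 to 3826 CPM in WT TRAP. In TRAP the highest WT libraries reached into the FI3KO range. Its contrast was -2.52 ± 0.77 (adjusted p = 0.0198), with a change on loss of 2.65 in replicates 3 to 6 and 0.07 in replicates 1 and 2 (adjusted p = 0.567).

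*Npr1*, the receptor of atrial natriuretic peptide and a driver of lipolysis, held 1.61, 1.58 and 1.87 CPM in FI3OE against 7.95, 7.33 and 6.69 CPM in WT SVF, and ran from 8.29 through 15.5 to 19.5 CPM in FI3KO against 4.69 through 6.90 to 10.3 CPM in WT TRAP. Cultures were fully apart and the TRAP ranges overlapped. Its contrast was -3.15 ± 0.41 (adjusted p = 3.16e-05), and on loss it was higher in both TRAP sets (0.74 and 1.52). *Slco2b1*, an organic anion transporter (-1.66 ± 0.12 on gain, 1.49 ± 0.39 on loss, contrast -3.14 ± 0.66), and *Chdh*, choline dehydrogenase (-1.89 ± 0.14, 1.35 ± 0.32, contrast -3.24 ± 0.58), had adjusted p of 0.00202 and 5.28e-04. *Slco2b1* changed by 2.59 on loss in TRAP replicates 3 to 6 and -0.07 in replicates 1 and 2, and *Chdh* by 2.00 and 0.48.

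**Figure D2:**
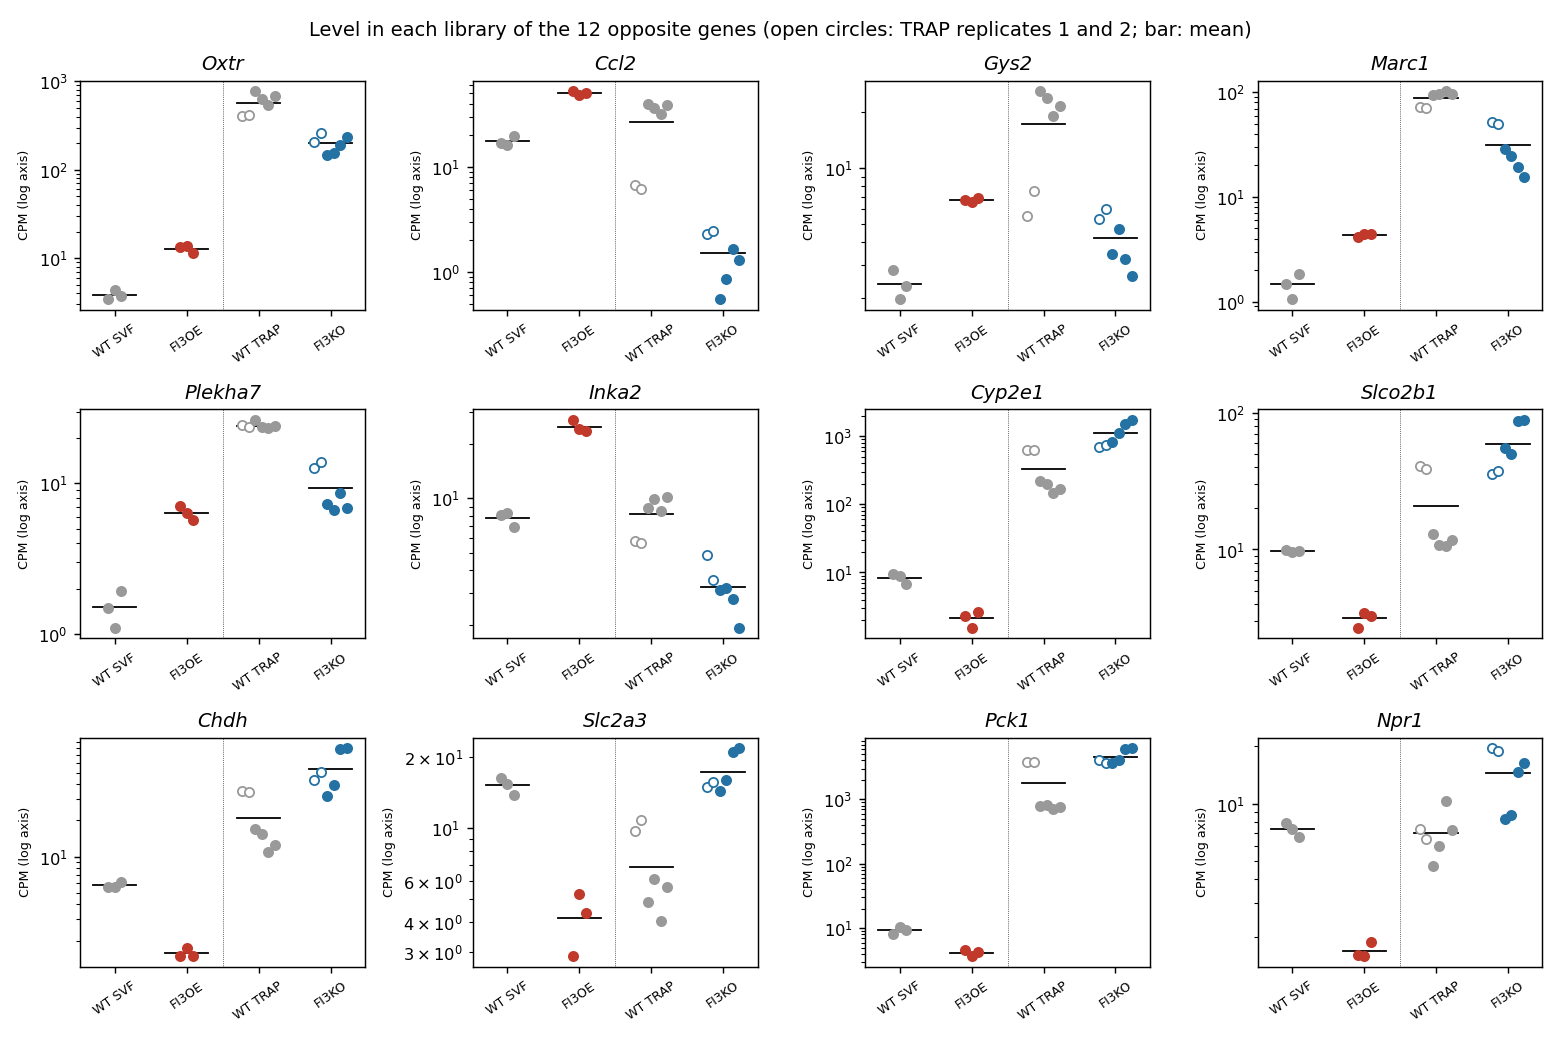
Each panel gives the level of 1 opposite gene in CPM (log axis) in every library of WT SVF, FI3OE, WT TRAP and FI3KO, with bars at group means and open circles for TRAP replicates 1 and 2. *Oxtr*, *Plekha7* and *Slc2a3* groups are apart in both systems, whereas the open circles of *Gys2*, *Slco2b1* and *Pck1* lie close together across genotypes.

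Because TRAP replicates 1 and 2 stood apart, opposite genes were also read in each TRAP set. The sign of the change on loss was the same in replicates 1 and 2 for 85.4% of the genes raised by gain and lowered by loss and for 84.1% of the reverse, against 68.0% of all genes and 86.4% of all genes called on loss. Replicates 3 to 6 alone called 26.4% of genes higher and 24.0% lower in FI3KO, and replicates 1 and 2 alone, with 2 libraries a group, called 1.56% and 1.90%. The change on loss was called in each set, in the same direction, for 97 of the 1370 opposite genes (7.08%) and 57 of the 857 same-direction genes (6.65%), against 1.83% of all 13093 genes and 4.87% of all genes called on loss. A test of the difference between the sets was called for 3460 genes (26.4%) and for 41.7% of the opposite genes. It was called for 37.0% of the same-direction genes and 35.5% of all genes called on loss.

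Of the opposite genes called in each set, 93 had a mean of at least 1 log2 CPM in both systems, 74 raised by gain and lowered by loss and 19 the reverse. The genes described here were chosen from these 93 after their values were seen. *Ass1*, which makes argininosuccinate in arginine synthesis (chr2:31470207-31520672, plus strand), held 28.6, 25.6 and 25.1 CPM in FI3OE against 14.6, 13.6 and 15.2 CPM in WT SVF, and ran from 3.57 through 6.28 to 10.9 CPM in FI3KO against 53.2 through 66.6 to 77.6 CPM in WT TRAP. Its lowest WT TRAP library held several times the highest FI3KO library, and both TRAP sets showed it on loss (-3.69 in replicates 3 to 6, -2.77 in replicates 1 and 2). The contrast of *Ass1* was 4.20 ± 0.33 (adjusted p = 1.65e-07).

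*Gtse1*, a microtubule-binding protein of dividing cells that restrains p53, held 17.4, 17.9 and 17.2 CPM in FI3OE against 6.43, 7.51 and 6.53 CPM in WT SVF, and ran from 2.31 through 2.54 to 3.65 CPM in FI3KO against 8.89 through 9.62 to 11.1 CPM in WT TRAP. Its groups were apart in both systems, and its loss changes in the TRAP sets were close to each other (-2.03 and -1.51). *Cfb*, complement factor B (chr17:34856374-34862518, minus strand), held 264, 279 and 259 CPM in FI3OE against 108, 117 and 111 CPM in WT SVF, and ran from 204 through 239 to 275 CPM in FI3KO against 424 through 488 to 510 CPM in WT TRAP. *Cfb* groups were likewise apart, with loss changes of -1.04 and -0.88 in the sets and a contrast of 2.24 ± 0.12 (adjusted p = 2.91e-09).

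Others of this kind raised by gain and lowered by loss were *Clu* (clusterin, 0.93 on gain and -1.33 on loss), *Eda2r* (an ectodysplasin receptor and p53 target, 1.00 and -1.27), *Prelp* (a matrix proteoglycan, 0.82 and -1.02), *Peg10* (an imprinted gene of retrotransposon origin, 1.11 and -0.82) and the interferon-induced GTPases *Gbp6* (0.86 and -1.02) and *Gbp10* (2.17 and -1.34). In the reverse direction, *Scd1*, the desaturase that makes oleate and palmitoleate, held 19005, 20065 and 21483 CPM in FI3OE against 37729, 37668 and 36810 CPM in WT SVF, and ran from 60226 through 61829 to 74336 CPM in FI3KO against 28460 through 36055 to 44150 CPM in WT TRAP. Neither pair of groups overlapped for *Scd1*, and its contrast was -1.67 ± 0.17 (adjusted p = 2.29e-06). *Adrb3*, the adrenergic receptor that starts lipolysis in fat (-0.75 on gain and 1.66 on loss), *Irs1*, an insulin receptor substrate (-0.35 and 1.04), *Acacb*, an acetyl-CoA carboxylase (-0.24 and 1.46), and *Txnip*, an inhibitor of glucose uptake (-0.38 and 0.58), were lower in FI3OE and higher in FI3KO in each TRAP set.

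**Figure D3:**
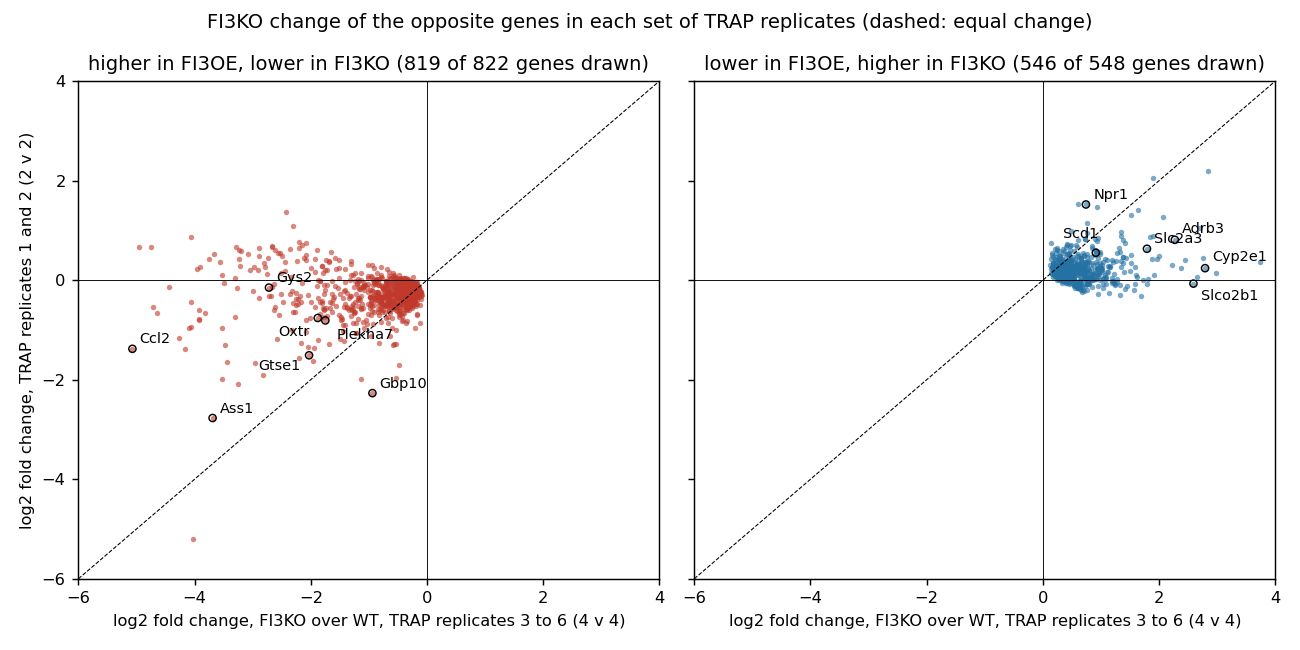
Each dot is an opposite gene, with its log2 fold change of FI3KO over WT in TRAP replicates 3 to 6 (x) and in replicates 1 and 2 (y); 5 genes that lie outside the axes or were not tested in 1 set are left out. Most dots lie nearer 0 on the y axis than the dashed line of equal change, while *Ass1*, *Gtse1*, *Gbp10* and *Npr1* are far from 0 on both axes.

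Genes that moved together on gain and loss were led upward, at a mean of at least 1 log2 CPM in each system, by *Mycl*, a MYC family transcription factor. It held 13.5, 13.8 and 11.4 CPM in FI3OE against 4.33, 4.21 and 4.58 CPM in WT SVF, and ran from 3.52 through 11.0 to 25.4 CPM in FI3KO against 0.935 through 1.54 to 3.40 CPM in WT TRAP. FI3KO values were widely spread but above all WT TRAP values. *Mycl* changed by 1.54 ± 0.11 on gain and 2.77 ± 0.48 on loss, and the contrast of -1.22 ± 0.69 was not called (adjusted p = 0.190). *Ifi27l2a*, an interferon-induced mitochondrial gene (1.09 and 1.25), *9530082P21Rik* (0.97 and 0.91), *Fam69b* (1.17 and 0.91) and complement component *C2* (0.85 and 1.01) were also among the 6.

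Downward, the 6 at that mean level were *Tfr2*, an iron sensor (-1.20 on gain and -2.23 on loss), the matrix protein *Tgfbi* (-1.03 and -1.20), *Ace*, the angiotensin-converting enzyme (-1.11 and -1.01), the tetraspanin *Tspan18* (-1.45 and -0.98), metallothionein *Mt1* (-1.03 and -0.97) and the ceramide synthase *Fam57b* (-0.93 and -1.02). *Tgfbi* held 6.65, 5.93 and 6.30 CPM in FI3OE against 12.9, 11.9 and 13.3 CPM in WT SVF and fell in both TRAP sets (-1.05 and -1.37, adjusted p = 8.06e-04 and 0.0437). None of the same-direction genes named here had a called contrast, with adjusted p from 0.135 (*Tspan18*) to 0.946 (*Mt1*). *Mt1* and *C2* had loss changes of opposite sign in the TRAP sets (-1.53 and 0.79 for *Mt1*; 1.65 and -0.27 for *C2*).

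Genes that moved in a single system by the test of the contrast were counted at a log2 fold change of at least 1 there. On gain only, 80 genes (0.611%) were higher and 78 (0.596%) lower in FI3OE, and on loss only, 85 (0.649%) were higher and 194 (1.48%) lower in FI3KO. On loss only, TRAP replicates 3 to 6 gave 276 higher and 522 lower, the 18-library fit 132 and 383, and TRAP replicates 1 and 2 turned the balance, with 52 higher and 19 lower. At a mean of at least 1 log2 CPM in each system, the 4 leading genes raised on gain only were *Ifit3b*, *Cnr1*, *Cxcl10* and *Ifit3*. *Ifit3b*, an antiviral IFIT protein whose near-identical paralog is *Ifit3* so that reads may have been split between them, held 189, 201 and 159 CPM in FI3OE against 32.8, 31.6 and 34.7 CPM in WT SVF, and ran from 2.87 through 3.64 to 4.54 CPM in FI3KO against 3.48 through 4.40 to 6.51 CPM in WT TRAP. FI3OE stood well above WT SVF, and the TRAP groups overlapped. Its change was 2.45 ± 0.08 on gain and -0.38 ± 0.17 on loss (adjusted p = 0.0938), with a contrast of 2.85 ± 0.23 (adjusted p = 1.65e-07).

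*Cxcl10*, an interferon-induced chemokine, held 130, 144 and 127 CPM in FI3OE against 23.3, 25.7 and 23.6 CPM in WT SVF, and changed by 2.45 ± 0.06 on gain and 0.20 ± 0.20 on loss (contrast 2.26 ± 0.24, adjusted p = 3.30e-06). *Cnr1*, the cannabinoid receptor, changed by 2.39 ± 0.10 and -0.28 ± 0.14 (contrast 2.68 ± 0.24) and *Ifit3* by 2.34 ± 0.07 and 0.22 ± 0.15 (contrast 2.14 ± 0.22). Among genes lower on gain only at a mean of at least 1 log2 CPM in each system, *Cdsn*, a cell adhesion protein, was a leading gene. It held 3.30, 4.28 and 4.68 CPM in FI3OE against 24.1, 20.8 and 22.4 CPM in WT SVF, and changed by -2.46 ± 0.11 on gain and 0.12 ± 0.09 on loss. *Trib3*, a stress-induced pseudokinase (-1.95 on gain and 0.52 on loss), and *A830018L16Rik* (-1.84 and 0.47) were also among the leading genes at that mean level. The loss change of *Ifit3*, *Cdsn*, *Trib3* and *A830018L16Rik* was called upward in TRAP replicates 3 to 6 alone (0.55, 0.29, 1.17 and 0.49), and *Ifit3* was at -0.35 in replicates 1 and 2.

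On loss only, *Lrfn4*, a synaptic adhesion protein, ran from 5.68 through 6.23 to 7.19 CPM in FI3KO against 1.15 through 1.73 to 2.27 CPM in WT TRAP, and held 13.4, 14.4 and 15.1 CPM in FI3OE against 18.3, 15.8 and 14.3 CPM in WT SVF. TRAP groups were far apart, with 1.98 and 1.71 in the TRAP sets, and the culture groups overlapped. Its contrast was -2.05 ± 0.23 (adjusted p = 7.27e-06). *Acsm3*, an acyl-CoA synthetase (2.19 on loss, -0.07 on gain), *Slc16a6*, a monocarboxylate transporter (1.84, -0.18), and the adaptor *Dok6* (1.52, -0.45) were called on loss in TRAP replicates 3 to 6 (3.18, 2.64 and 2.33) and not in replicates 1 and 2 (0.48, 0.63 and 0.38).

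Genes lowered on loss only were led, at a mean of at least 1 log2 CPM in each system, by *Plppr4*, *H2-DMb1*, *Irf8* and *Gpnmb*. *Plppr4*, a membrane phosphatase-related protein, ran from 0.760 through 0.969 to 2.61 CPM in FI3KO against 4.14 through 15.0 to 17.4 CPM in WT TRAP, and changed by -3.26 ± 0.43 on loss and 0.19 ± 0.13 on gain. *H2-DMb1*, which loads peptides on MHC class II (-2.69 on loss, 0.34 on gain), *Irf8*, a myeloid transcription factor (-2.64, 0.17), and *Gpnmb*, a gene of lipid-laden macrophages (-2.69, -0.04), are genes of antigen-presenting cells. *Gpnmb* changed by -4.50 in TRAP replicates 3 to 6 and 0.79 in replicates 1 and 2, and its contrast (2.68 ± 1.00, adjusted p = 0.0492) was no longer called in 19 of 32 alternatives and was 1.96 without WT TRAP replicate 3. *Irf8* changed by -3.31 and -1.06 in these sets (adjusted p = 0.0228 in replicates 1 and 2). Macrophage marker levels, given with the chemokines, were lower in FI3KO in TRAP replicates 3 to 6 and overlapped in replicates 1 and 2, and their part in the result was not tested.

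The promoters of these classes were read in RefSeq windows of 250 bases before to 50 after each gene's start (GRCm38.p6), which 9894 of the 13093 genes had. The motif searched was GAAA, any 2 bases and GAAA again, on both strands, a core that IRF family proteins bind in interferon-stimulated response elements. It occurred in 3.99% of all 27025 genes with a window and in 3.81% of the 9894. Among genes raised by gain and lowered by loss it occurred in 42 of 611 (6.87%), and among those lowered by gain and raised by loss in 5 of 416 (1.20%). Genes raised on gain only held it in 21 of 58 (36.2%), and those lowered on gain only in 0 of 54. Same-direction genes (3.11% for either direction) and genes of loss only (3.57% higher, 3.76% lower) were near the share of all genes. These shares are descriptions of sequence and say nothing of binding.

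The upstream 250 bases are printed for 3 genes raised on gain only (*Isg15*, *Ifit3b*, *Cxcl10*), for *Gbp2*, which was raised by gain and lowered by loss and holds the motif, and for *Oxtr*, the leading opposite gene, whose window holds none. Capitals mark matches to the motif on either strand, and each sequence runs 5′ to 3′ on the gene's own strand.
*Isg15* (chr4:156200819-156201068, minus strand): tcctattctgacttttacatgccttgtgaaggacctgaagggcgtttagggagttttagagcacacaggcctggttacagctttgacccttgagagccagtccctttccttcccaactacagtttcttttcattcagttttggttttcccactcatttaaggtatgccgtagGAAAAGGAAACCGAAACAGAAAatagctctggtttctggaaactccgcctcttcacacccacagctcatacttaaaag
*Ifit3b* (chr19:34607707-34607956, plus strand): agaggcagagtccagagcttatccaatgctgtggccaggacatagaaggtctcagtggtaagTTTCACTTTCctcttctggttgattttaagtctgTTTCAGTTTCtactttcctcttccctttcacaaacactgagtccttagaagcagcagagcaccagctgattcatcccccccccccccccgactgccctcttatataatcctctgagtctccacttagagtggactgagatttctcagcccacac
*Cxcl10* (chr5:92348890-92349139, minus strand): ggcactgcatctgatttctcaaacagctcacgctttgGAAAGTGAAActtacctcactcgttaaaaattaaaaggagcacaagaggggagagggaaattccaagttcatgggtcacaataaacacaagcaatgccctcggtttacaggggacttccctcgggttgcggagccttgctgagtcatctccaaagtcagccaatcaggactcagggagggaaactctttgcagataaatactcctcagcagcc
*Gbp2* (chr3:142620413-142620662, plus strand): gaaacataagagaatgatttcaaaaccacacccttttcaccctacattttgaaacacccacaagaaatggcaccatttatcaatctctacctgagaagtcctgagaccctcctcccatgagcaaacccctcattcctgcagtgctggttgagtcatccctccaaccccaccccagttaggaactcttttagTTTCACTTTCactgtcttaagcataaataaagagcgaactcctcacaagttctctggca
*Oxtr* (chr6:112489826-112490075, minus strand): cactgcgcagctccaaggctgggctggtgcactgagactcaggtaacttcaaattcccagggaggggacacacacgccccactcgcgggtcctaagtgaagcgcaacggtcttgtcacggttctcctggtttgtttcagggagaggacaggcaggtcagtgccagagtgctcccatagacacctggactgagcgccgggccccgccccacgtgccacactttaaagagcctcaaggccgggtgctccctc
Windows of the opposite genes *Inka2*, *Cyp2e1*, *Slco2b1*, *Chdh*, *Pck1* and *Npr1* held no match either, and *Ccl2*, *Gys2*, *Marc1*, *Plekha7* and *Slc2a3* had no window. The genes printed for gain only all hold the motif, unlike most of their class. *Cnr1*, also a leading gene raised on gain only, held no match in its windows.

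**Figure D4:**
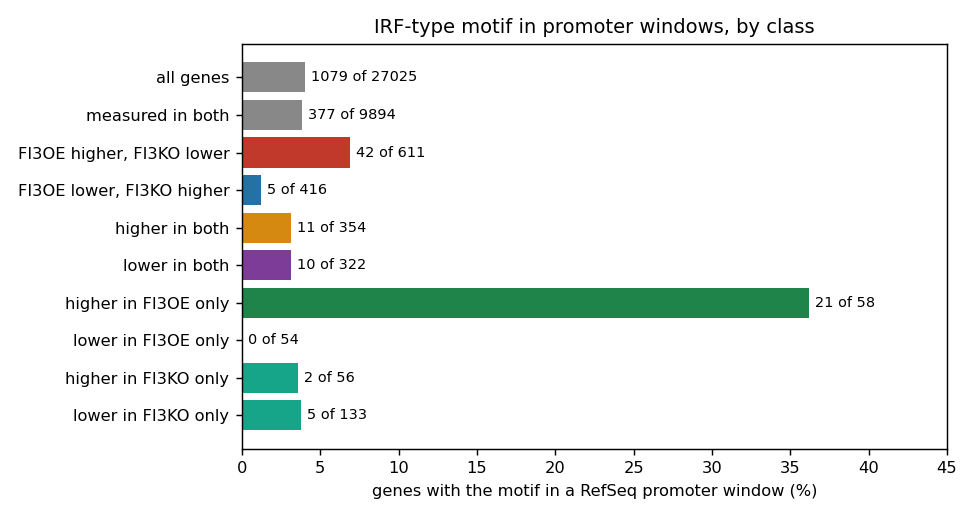
Bars give the share of genes (%) whose RefSeq promoter window holds GAAA, any 2 bases and GAAA on either strand, by class of change, with the counts beside each bar. The share is 36.2% for genes raised on gain only, 6.87% for genes raised by gain and lowered by loss and near 4% for all genes.

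Counts of called list members over all libraries stand against 22.4% of all genes higher and 18.9% lower in FI3OE, and 19.5% higher and 17.8% lower in FI3KO. Counts within a TRAP set stand against 26.4% higher and 24.0% lower in replicates 3 to 6, and 1.56% higher and 1.90% lower in replicates 1 and 2. Counts of members raised by gain and lowered by loss stand against 6.28% of all genes, and those of the reverse against 4.19%. Counts of members lower in both systems stand against 3.10%. Upstream in the pathway, 20 sensors, adaptors, kinases and IRFs were measured in both systems, of which 8 were higher and 2 lower in FI3OE and 1 higher and 11 lower in FI3KO. The 5 members raised by gain and lowered by loss were *Irf3*, the double-stranded RNA sensor *Tlr3*, the kinase *Ikbke*, the interferon receptor subunit *Ifnar2* and *Irf5*. On loss, *Irf5* changed by -2.79 in TRAP replicates 3 to 6 and 0.26 in replicates 1 and 2 (adjusted p = 0.628), and *Ikbke* by -1.13 and -0.00. *Tlr3* held 39.0, 40.7 and 37.4 CPM in FI3OE against 18.8, 19.1 and 21.5 CPM in WT SVF, and changed by 0.96 ± 0.06 on gain and -0.55 ± 0.10 on loss (contrast 1.53 ± 0.16, adjusted p = 3.21e-06). *Irf4*, an IRF that regulates lipolysis and thermogenesis in fat, was lower in FI3OE (-0.82 ± 0.07) and changed by 0.42 ± 0.23 on loss (adjusted p = 0.176). The list's medians were 0.11 on gain and -0.33 on loss, against 0.01 and 0.02 for all genes.

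Interferon-stimulated genes rose in FI3OE without exception and were mostly not called in FI3KO. All 39 measured members were higher in FI3OE, whereas 10 were lower and 1 higher in FI3KO, and the contrast was positive and called in 37. List medians were 1.14 on gain and -0.19 on loss. *Ifit1*, an antiviral RNA-binding protein, held 942, 975 and 916 CPM in FI3OE against 221, 215 and 228 CPM in WT SVF, and ran from 1.36 through 1.68 to 2.49 CPM in FI3KO against 1.01 through 1.67 to 3.47 CPM in WT TRAP. Cultures were fully apart while the TRAP groups overlapped, and *Ifit1* changed by 2.08 ± 0.04 on gain and -0.17 ± 0.29 on loss (contrast 2.28 ± 0.33, adjusted p = 7.74e-05). The loss value of *Ifit1* was 0.40 in TRAP replicates 3 to 6 and -0.99 in replicates 1 and 2, neither called. The difference between the sets was called (edgeR adjusted p = 0.0186). *Isg15*, a ubiquitin-like modifier, changed by 1.88 ± 0.07 and -0.46 ± 0.24 (adjusted p on loss 0.149; contrast 2.36 ± 0.22).

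The 10 interferon-stimulated genes raised by gain and lowered by loss were *Ifit2*, *Zbp1*, *Parp9*, *Parp14*, *Phf11d*, *Eif2ak2*, *Ifitm3*, *Lgals3bp*, *Samd9l* and *Sp100*. *Zbp1*, a sensor of Z-form nucleic acids, held 270, 295 and 268 CPM in FI3OE against 83.9, 91.0 and 88.9 CPM in WT SVF, and ran from 1.10 through 1.42 to 2.39 CPM in FI3KO against 2.34 through 3.28 to 5.69 CPM in WT TRAP. The TRAP ranges overlapped only at their ends, and the contrast was 2.82 ± 0.30 (adjusted p = 4.12e-06). On average 18 of the 39 genes were under 5 CPM in both TRAP groups, against 3300 of all 13093 genes, and the part of low levels in the calls on loss was not tested.

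Interferon-induced GTPases, which attack vacuoles holding pathogens, likewise rose in FI3OE without exception. All 15 were higher in FI3OE and 5 were lower in FI3KO (*Gbp2*, *Gbp5*, *Gbp6*, *Gbp10* and *Iigp1*), with medians of 1.28 and -0.36. *Gbp2* held 326, 328 and 303 CPM in FI3OE against 112, 129 and 123 CPM in WT SVF, and ran from 26.1 through 37.9 to 41.1 CPM in FI3KO against 45.5 through 58.9 to 63.5 CPM in WT TRAP. Its groups did not overlap, and its contrast was 2.04 ± 0.16 (adjusted p = 1.79e-07). In TRAP replicates 1 and 2 the median of the list on loss was -0.76, and in replicates 3 to 6 -0.17. Reads of near-identical GBP genes may have been split among them.

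Class I antigen presentation genes were higher in FI3OE in 19 of 19, lower in FI3KO in 8 and higher there in 1, with medians of 1.01 and -0.14. *H2-Q6* (1.99 on gain, -1.23 on loss), *H2-Q7* (1.68, -1.07) and *H2-Q4* (1.34, -0.84), near-identical class I genes that can share reads, had the largest contrasts of the list. Their loss changes were -1.84, -1.63 and -1.20 in TRAP replicates 3 to 6 and -0.01, -0.01 and -0.05 in replicates 1 and 2. *Psmb8*, an immunoproteasome subunit, held 165, 183 and 166 CPM in FI3OE against 68.9, 71.5 and 63.5 CPM in WT SVF and changed by 1.32 ± 0.06 and -0.43 ± 0.12, with values of -0.37 and -0.58 in the TRAP sets.

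Chemokines were lower in FI3KO in 7 of 10 and higher in FI3OE in 5 (lower in 1), and *Ccl2*, *Ccl7* and *Ccl11* did both. *Ccl7*, a monocyte chemokine, held 76.5, 68.8 and 76.6 CPM in FI3OE against 27.3, 28.4 and 31.5 CPM in WT SVF, and ran from 1.62 through 2.56 to 5.70 CPM in FI3KO against 10.5 through 39.6 to 46.5 CPM in WT TRAP. On loss *Ccl7* changed by -4.27 in TRAP replicates 3 to 6 and by -1.16 in replicates 1 and 2, where it was not called (edgeR adjusted p = 0.0536). *Ccl11*, the eosinophil chemokine eotaxin, changed by 0.69 ± 0.14 and -2.86 ± 0.29, and by -3.44 and -1.64 in the TRAP sets. Both had groups apart in each system. Medians of the list were 0.40 on gain and -1.94 on loss.

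Macrophage markers moved with these chemokines on loss in TRAP replicates 3 to 6, while their sums overlapped in replicates 1 and 2 and on gain. Their 19 genes summed to 19.4 to 60.7 CPM in FI3KO and 57.0 to 167 CPM in WT TRAP, split into 49.8 to 60.7 against 57.0 to 58.0 CPM in replicates 1 and 2 and 19.4 to 25.3 against 101 to 167 CPM in replicates 3 to 6. In culture they summed to 2562 to 2635 CPM in FI3OE and 2562 to 2763 CPM in WT SVF, and none of the 10 defining markers was at or below 3 reads in every library of a group. Of 15 members measured in both systems, 13 were lower in FI3KO and 1 was higher (*Cd14*, 1.66, with 2.07 in TRAP replicates 3 to 6). In FI3OE 4 were higher and 3 lower. Their medians were -1.64 on loss (-2.49 in TRAP replicates 3 to 6, 0.41 in replicates 1 and 2) and 0.02 on gain. In TRAP RNA, fewer macrophages, less RNA per macrophage and less carry-over of RNA of other cells cannot be told apart. NF-kB targets were lower in FI3KO in 11 of 18 and mixed in FI3OE (5 higher, 4 lower), for example *Vcam1*, a leukocyte adhesion molecule (0.13 on gain, -3.21 on loss; -0.44 in TRAP replicates 1 and 2). Acute phase and complement genes were lower in FI3KO in 7 of 12 and higher in FI3OE in 6 (lower in 4), with *Saa3* at 0.61 and -2.75. The part of macrophage RNA in the chemokine, NF-kB and acute phase changes on loss was not tested. In TRAP replicates 1 and 2, where the marker sums overlapped, 2 of 10 chemokines, 0 of 18 NF-kB targets and 6 of 12 acute phase and complement genes were lower in FI3KO, against 1.90% of all genes.

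Targets of p53 halt the cell cycle or start apoptosis. Of 19 members, 11 were raised by gain and lowered by loss, against 6.28% of all genes. Of the list, 17 were higher and 2 lower in FI3OE, and 11 were lower and 1 higher in FI3KO, with medians of 0.62 and -0.39. On loss the list's median was -0.55 in TRAP replicates 3 to 6 (12 lower) and -0.11 in replicates 1 and 2 (1 lower), and the difference between the sets was called for 11 members. *Cdkn1a*, the cell cycle inhibitor p21, held 524, 541 and 511 CPM in FI3OE against 218, 221 and 218 CPM in WT SVF, and ran from 57.6 through 78.1 to 113 CPM in FI3KO against 127 through 268 to 294 CPM in WT TRAP. No groups overlapped. Its contrast was 2.78 ± 0.38 (adjusted p = 5.21e-05), and its change on loss -2.05 in TRAP replicates 3 to 6 and -0.29 in replicates 1 and 2 (adjusted p = 0.182). *Eda2r* (contrast 2.28 ± 0.16), the death receptor *Tnfrsf10b* (1.68 ± 0.23), the DNA polymerase *Polk* (1.52 ± 0.13) and *Mdm2*, the ubiquitin ligase of p53 (1.25 ± 0.13), moved likewise. Cell cycle genes were higher in FI3OE in 8 of 19 and lower in FI3KO in 6. Their median on loss was -0.62 in TRAP replicates 3 to 6 (8 lower) and -0.03 in replicates 1 and 2 (0 lower). Macrophage marker medians also differed between these sets (-2.49 and 0.41), and their part was not tested. *Mki67*, a marker of dividing cells, changed by 0.42 on gain and -1.85 on loss, with -3.29 in TRAP replicates 3 to 6 and 0.66 in replicates 1 and 2 (adjusted p = 0.216). In both TRAP groups 15 of the 19 cell cycle genes were under 5 CPM.

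Endoplasmic reticulum (ER) chaperones fell with active IRF3 and were not raised as a group by its loss. In FI3OE 17 of 19 were lower and none higher, and in FI3KO 3 were higher and 6 lower, with medians of -0.78 and -0.09. *Hspa5* (BiP), the main ER chaperone, held 844, 705 and 1084 CPM in FI3OE against 2618, 2716 and 2841 CPM in WT SVF, and ran from 343 through 364 to 426 CPM in FI3KO against 422 through 488 to 546 CPM in WT TRAP. It was thus lower in both systems, by -1.65 ± 0.11 and -0.38 ± 0.07, and the contrast of -1.26 ± 0.16 (adjusted p = 1.76e-05) says that the fall on gain was the larger. *Creld2* (-1.79 on gain, 0.43 on loss), *Pdia4* (-1.26, 0.52) and *Fkbp2* (-0.44, 0.41) were the chaperone genes that moved in opposite directions.

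ER-associated degradation genes, which remove misfolded proteins, were lower in FI3OE in 8 of 11 and higher in FI3KO in 2. *Derl1*, a channel component, did both (-0.30 and 0.55), while *Herpud1* (-1.57 on gain, 0.04 on loss) and *Sel1l* (-0.97, -0.01) changed on gain. Stress sensors and ATF4 targets were lower in FI3OE in 13 of 15, with 3 higher and 3 lower in FI3KO. *Asns*, asparagine synthetase, changed by -0.44 and 0.75, with -0.09 on loss in TRAP replicates 1 and 2, and *Phgdh*, which starts serine synthesis, by -1.45 and -0.07.

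Adipocyte markers were lower in FI3OE in 10 of 19 and higher in 5, and higher in FI3KO in 7 and lower in 2, beside 18.9%, 22.4%, 19.5% and 17.8% of all genes. The list's median on loss was 0.31 in TRAP replicates 3 to 6 and -0.27 in replicates 1 and 2. *Adipoq*, the adipokine adiponectin, was higher in FI3OE (999, 1034 and 1049 CPM against 740, 781 and 765 CPM; 0.42 ± 0.04) and changed by 0.42 ± 0.20 on loss (adjusted p = 0.115), so that its contrast was 0.00 ± 0.30 (adjusted p = 0.997). TRAP replicates 3 to 6 gave 0.90 on loss and replicates 1 and 2 gave -0.37. *Cfd*, the adipokine adipsin (-0.21 on gain, 1.83 on loss), was opposite, with 2.97 and 0.14 (adjusted p = 0.236) in the TRAP sets, and *Lep*, leptin (-0.24, -1.63), fell in both systems and in each TRAP set.

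Lipogenic genes were mixed on gain (10 of 20 higher, 8 lower), and on loss 9 were higher and 2 lower. In TRAP replicates 3 to 6, 8 were higher and 4 lower in FI3KO (median 0.19). In replicates 1 and 2, 9 were higher and 0 lower (median 0.43), against 1.56% and 1.90% of all genes. *Scd1* and *Acacb* were among the 4 lowered by gain and raised by loss. *Scd3*, a near relative of *Scd1* that may share reads with it, fell by 3.58 ± 0.16 on gain and changed by 0.09 ± 0.19 on loss. *Fads1*, a fatty acid desaturase, changed by -0.04 ± 0.04 on gain and rose by 1.20 ± 0.11 on loss, and was called in both TRAP sets. Thermogenic genes were lower in FI3OE in 6 of 8 (*Ppara* -1.12) and lower in FI3KO in 1. On average 4 of these 8 were under 5 CPM in both TRAP groups and 3 in both culture groups. For all 13093 genes the counts were 3300 and 2301, and the part of low levels was not tested. Cholesterol synthesis genes were higher in FI3OE in 12 of 19, and *Dhcr7*, which makes cholesterol in the last step, was raised by gain and lowered by loss (0.81 and -0.83, with -0.10 in TRAP replicates 1 and 2).

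Insulin signalling genes were lower in FI3OE in 5 of 12 and higher in FI3KO in 7. In TRAP replicates 3 to 6, 10 were higher (median 0.51), and in replicates 1 and 2, 2 were higher (median 0.11). The insulin receptor *Insr* (-0.21 on gain, 0.34 on loss), its substrate *Irs1* (-0.35, 1.04) and the phosphodiesterase *Pde3b* (-0.23, 0.71) did both. *Insr* changed by 0.51 on loss in TRAP replicates 3 to 6 and 0.02 in replicates 1 and 2. *Irs1* held 189, 198 and 189 CPM in FI3OE against 251, 237 and 237 CPM in WT SVF, and ran from 138 through 157 to 189 CPM in FI3KO against 60.5 through 65.0 to 106 CPM in WT TRAP. Its groups were apart in both systems (contrast -1.37 ± 0.22, adjusted p = 1.90e-04). *Slc2a4*, the insulin-responsive glucose transporter GLUT4, was lower in FI3OE (132, 141 and 147 CPM against 204, 186 and 187 CPM; -0.48 ± 0.05) and changed by 0.01 ± 0.13 on loss (contrast -0.48 ± 0.20, adjusted p = 0.0740). Respiratory chain genes were lower in FI3OE in 8 of 20 and higher in FI3KO in 12, with 6 doing both, such as *Sdha* (-0.26 and 0.46). In TRAP replicates 3 to 6, 17 of the 20 were higher in FI3KO (median 0.38), and in replicates 1 and 2 none was called (median 0.09), against 26.4% and 1.56% of all genes.

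Matrix genes fell on loss and were mixed on gain. In FI3KO 16 of 22 were lower and 1 higher, and in FI3OE 9 were higher and 9 lower, so that 8 were lower in both systems and 4 (*Sparc*, *Lox*, *Loxl2* and *Timp1*) were raised by gain and lowered by loss. *Timp1*, an inhibitor of matrix proteases, held 97.5, 106 and 98.9 CPM in FI3OE against 37.4, 40.9 and 42.0 CPM in WT SVF, and ran from 0.147 through 0.374 to 1.06 CPM in FI3KO against 0.674 through 3.16 to 5.28 CPM in WT TRAP. On loss it changed by -3.76 in TRAP replicates 3 to 6 and by 0.42 in replicates 1 and 2, and *Loxl2* by -2.74 and 0.45. The list's median on loss was -1.43 and -0.14 in these sets. The medians of macrophage markers (-2.49 and 0.41) and of preadipocyte and fibroblast markers (-0.97 and 0.67) also differed between the sets, and the part of these cells was not tested. *Loxl3*, a lysyl oxidase that crosslinks collagen, was raised on gain only (303, 337 and 304 CPM against 55.6, 60.4 and 60.6 CPM).

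**Figure D5:**
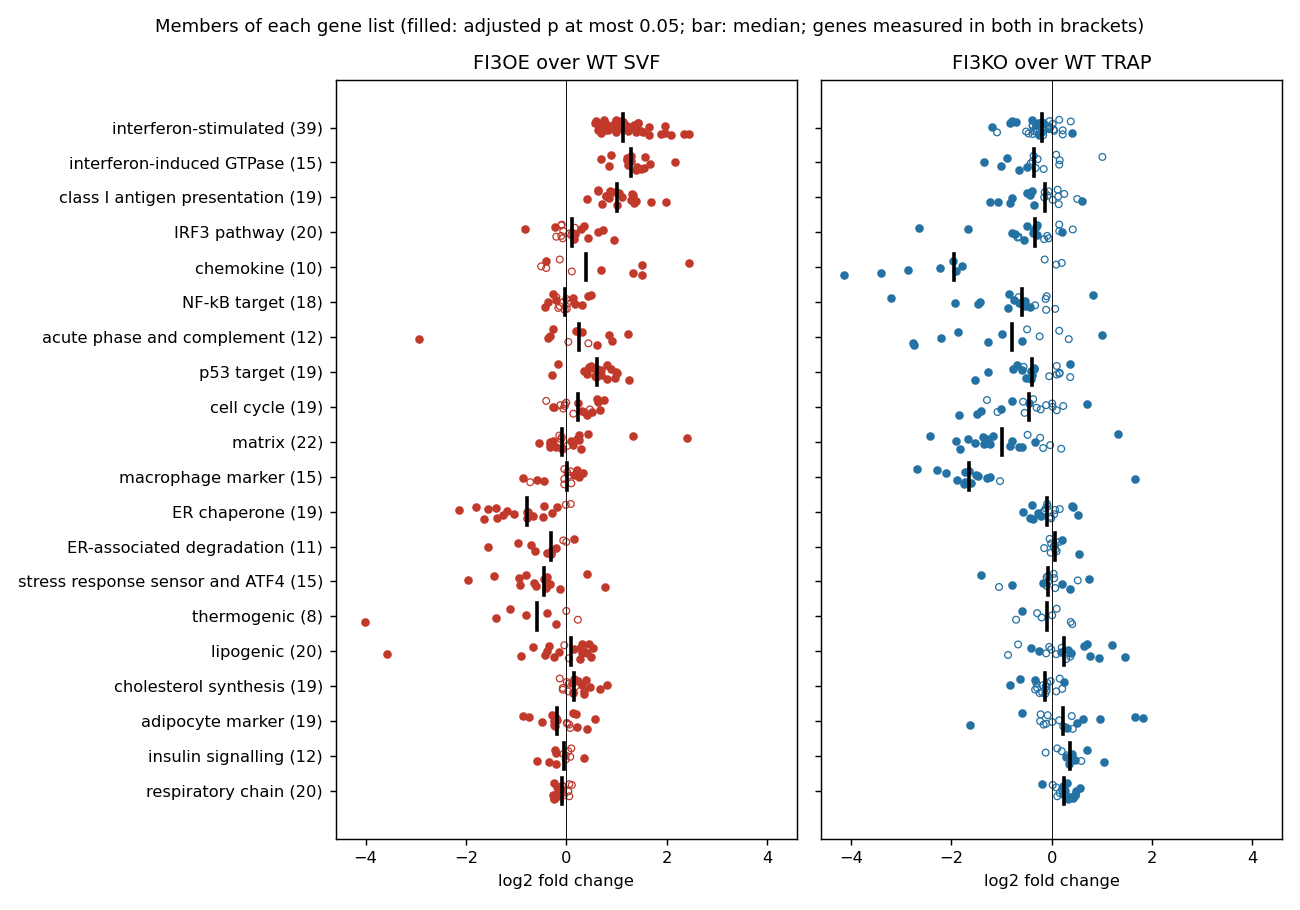
Dots are the members of each gene list measured in both systems (number in brackets), with their log2 fold change on gain (left) and on loss (right); filled dots were called and bars mark medians. All interferon-stimulated, GTPase and class I members lie above 0 on gain, while the medians on loss of these lists are -0.19, -0.36 and -0.14.

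Fibroblast and some endothelial markers differed between the TRAP sets. Of 8 endothelial markers 1 was higher in FI3OE and none was called on loss, although 3 were higher in FI3KO in TRAP replicates 1 and 2. All 11 genes of that list, measured in both systems or not, summed there to 90.8 and 132 CPM in FI3KO against 48.2 and 51.3 CPM in WT. Of 7 preadipocyte and fibroblast markers, *Cd34* was higher (0.72) and *Pdgfrb* lower (-0.24) in FI3OE, and *Dcn* (1.36) was higher and *Dpp4* (-1.50) lower in FI3KO. In TRAP replicates 3 to 6, 5 of the 7 were lower and 1 higher in FI3KO, in replicates 1 and 2 none was lower and 1 higher (24.0% and 1.90% of all genes were lower in these sets), and the difference between the sets was called for all 7. All 8 genes of that list summed to 79.4 to 108 CPM in FI3KO and 62.4 to 70.0 CPM in WT TRAP. This higher sum in FI3KO ran against most members in replicates 3 to 6, where *Dcn* alone was higher (1.98). Mesothelial markers (2 measured) gave no call, and no lymphocyte or epididymal marker passed the filter in both systems.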

How the data were processed

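RNA of 18 libraries was sequenced after ribosomal RNA depletion. Per the labels and the study's methods, the authors trimmed reads with fastp and assigned them with Salmon 1.4.0 to GENCODE transcripts of GRCm38. The deposited files give estimated counts (not whole numbers) and TPM (length-scaled transcript abundance) for each transcript, with effective lengths. Estimated counts were summed per gene with GENCODE M21, an earlier release than the one the authors used, in which 117850 of 118733 transcripts were found; each of the 883 left over was treated as a gene and together they held 0.37 to 1.08% of reads. TPM was not used for tests, and effective lengths entered only the length offset.

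Gene sums were rounded and tested with edgeR 4.0.16 (R 4.3.3) by the quasi-likelihood test with TMM scaling and Benjamini-Hochberg adjustment over all genes tested, and filterByExpr removed low genes. Gain was fitted on 6 libraries, loss on 12 and the contrast on all 18. A gene was called at an adjusted p of at most 0.05. SE is the log2 fold change divided by the root of F. Scripts were tested on simulated data. Alternatives used DESeq2 1.42.0, limma 3.58.1, other filters, offsets and left-out libraries, 33 in all. Exact permutation tests used log2(CPM + 0.1).

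Genes named include 8 fixed genes (*Irf3*, *Aig1*, *Adtrp*, *Isg15*, *Ifit1*, *Ccl5*, *Adipoq*, *Slc2a4*). Others were taken in each direction at a mean of at least 1 log2 CPM in both systems. These were the 6 opposite and 6 same-direction genes with the largest smaller change, and the 4 gain-only and 4 loss-only genes with the largest contrast. Up to 4 genes per list with the largest contrast were added. Some genes that this rule takes are not reported here. Other genes were named to show a list or a replicate set after their values were seen. The members, the 25 lists and the motif were chosen with earlier results of these data known. Reads carry no molecular identifiers, so depth limits cover counting error only.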

Additional observations from a re-analysis of the deposited data

Results flagged for a closer look

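The change on loss differed between TRAP replicates 1 and 2 and TRAP replicates 3 to 6 in 3460 of the genes measured in both systems, by the interaction term of an edgeR fit. Of 92 groups of libraries tested for a library far from the rest, 2 were flagged, against 4.6 that chance would give. *Ccl5* in FI3KO replicate 2 held 0.0323 CPM against 0 CPM in the other FI3KO libraries, all under the value of 3 reads, the gap being 1.00 of that group's range. *Plekha7* in WT TRAP replicate 3 held 26.4 CPM against 23.2 to 24.3 CPM in the others, the gap being 0.632 of the range.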

How the results depend on the processing

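Counts were 4121 genes with a called contrast, 1370 opposite, 857 same-direction, 158 gain-only and 279 loss-only genes, with 5960 called on gain and 5095 on loss over all genes tested in each system, beyond the 13093 measured in both. Limma voom gave 469 loss-only genes, and a minimum of 10 counts in every library 164. Taking both changes from the 18-library fit gave 585 opposite, 344 same-direction and 515 loss-only genes and 1783 on gain. A length offset gave 829 opposite, 458 same-direction and 3800 on gain. TRAP replicates 3 to 6 alone gave 6534 called contrasts and 798 loss-only genes. TRAP replicates 1 and 2 alone gave 168 opposite, 107 same-direction, 283 gain-only and 71 loss-only genes and 500 on loss. At a log2 fold change of 1 there were 1171 called contrasts, 49 opposite and 13 same-direction genes, 583 on gain and 901 on loss. Averaging the close FI3KO pairs, chosen after seeing the data, gave 861 opposite and 497 same-direction genes and 3074 on loss. Calls in each TRAP set, also chosen after seeing the data, numbered 97 opposite and 57 same-direction genes. The causes were not tested. Of the 1370 opposite genes, 487 were shared with the 18-library fit, 744 with the length offset, 1266 with replicates 3 to 6, 103 with replicates 1 and 2 and 851 with the averaged FI3KO pairs.

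Same-numbered libraries did not deviate together (correlations of -0.02 to 0.07 in culture and -0.38 to 0.07 in TRAP). Of 9 libraries, 1 correlated best with its own number. In TRAP this check cannot exclude that the numbers pair libraries. The TRAP replicates that stood apart lay between the genotypes on the leading component. They thus deviated from their own groups in opposite directions there, which lowers such correlations whether or not libraries are paired. The replicate block gave 3003 called contrasts and 996 opposite, 565 same-direction and 175 loss-only genes.

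Leaving out each library in turn gave 3169 to 4554 called contrasts, 1096 to 1466 opposite, 636 to 882 same-direction, 131 to 170 gain-only and 215 to 384 loss-only genes, with 4949 to 5197 on gain and 3937 to 5343 on loss. Of 45 named genes measured, 30 had a called contrast, 26 of them under every alternative. *Gpnmb*, *Pck1* and *Acsm3* lost theirs in some alternatives, and *Irf3* lost its call under the length offset (edgeR adjusted p = 0.404). Another 10 that were not called, such as *Aig1*, *Slc2a4* and *Tfr2*, became called in some. Contrasts that changed sign were *Irf3* under the length offset (-0.24) and *Gpnmb* in TRAP replicates 1 and 2 (-0.82), and otherwise contrasts that were not called. *Adipoq* was -0.03 under voom, -0.00 with 10 counts, -0.04 under the length offset and the replicate block, -0.05 with a TRAP set term, -0.47 in replicates 3 to 6, -0.13 with WT TRAP replicates 1 and 2 as 1 library and -0.00 with averaged FI3KO pairs. In replicates 1 and 2 alone *Ifi27l2a* was 0.64, *C2* 1.12, *Tfr2* -0.16 and *Fam57b* -0.51, and in replicates 3 to 6 alone *9530082P21Rik* was -0.28, *Ace* 0.23 and *Mt1* 0.50. *Ace* was 0.02 under voom, *Mt1* 0.05 and *Fam57b* -0.09 under the length offset, and *9530082P21Rik* -0.03 and *Mt1* 0.12 with WT TRAP replicates 1 and 2 as 1 library. Leaving out single libraries moved *Adtrp* from -0.49 to 0.58, *Adipoq* from -0.13 to 0.09, *9530082P21Rik* from -0.04 to 0.15, *C2* from -0.29 to 0.00, *Ace* from -0.23 to 0.19, *Mt1* from -0.27 to 0.13 and *Fam57b* from -0.05 to 0.25. Levels under 0.0741 to 0.1393 CPM, the value of 3 reads, were not detectable, and calls on loss were not tested against level.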

Other observations

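Some large changes lay outside the named genes, and these were chosen after their values were seen. *Mrgprf*, an orphan receptor, fell by 4.87 ± 0.77 on loss, with 0.0260 to 0.323 CPM in FI3KO against 1.14 to 8.62 CPM in WT TRAP, and was called in each TRAP set (-4.03 and -5.21), while it rose by 0.30 ± 0.06 on gain. Its FI3KO levels reached below the value of 3 reads, so the size of that fall is uncertain. *Cngb3*, a cyclic nucleotide-gated channel subunit, held 8.93, 8.14 and 6.80 CPM in FI3OE against 0.536, 0.687 and 0.704 CPM in WT SVF and changed by 3.60 ± 0.18 on gain and -2.58 ± 0.65 on loss. Its contrast was 6.18 ± 0.75 (edgeR adjusted p = 1.58e-05), although its TRAP levels of 0 to 0.973 CPM lay near the depth limit. *Ubd*, an interferon- and TNF-induced ubiquitin-like protein, changed by 1.09 ± 0.15 on gain and -3.41 ± 0.60 on loss, with -4.72 in TRAP replicates 3 to 6 and -0.53 in replicates 1 and 2. *Otop1*, a proton channel, fell in both systems (-1.25 ± 0.33 and -4.53 ± 0.61).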
